A study of Saccharomyces cerevisiae with 18 samples.

Results

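Auxin was given to a yeast strain that kept an untagged copy of Bdf1, and newly made and total mRNA were compared with those of the same strain given the solvent alone. The comparison used 6 of the 18 libraries of the study, chosen by their labels: 3 libraries of strain RDY234 with 3-indoleacetic acid (IAA, an auxin) and 3 with DMSO. RDY234 is a Saccharomyces cerevisiae strain that carries pGPD1-OsTIR1::HIS3, the tagged alleles BDF2-3XV5-mAID-kanMX for Bdf2 and BDF1-3XV5-mAID-URA3 for Bdf1, and in addition pBDF1-BDF1::TRP1. OsTIR1 is a plant F-box protein, here driven by the GPD1 promoter, that sends proteins carrying the mAID degron to the proteasome when auxin is present. Bdf1 and Bdf2 both carry the degron, and the last allele adds Bdf1 without it, under its own promoter. The IAA group received 1 mM IAA dissolved in DMSO for 25 min and the DMSO group DMSO for the same time, and both then received 5 mM 4-thiouracil (4tU) for 4 min, in rich medium (YPD) at 30 °C. Another RDY234 group received DMSO in place of both compounds and gives the background of the labelling. Strain RDY73 carries the same alleles except pBDF1-BDF1::TRP1 and had the same 3 groups. Each group had 3 libraries from biological triplicates, lettered A, B and C.

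Bdf1 and Bdf2 are bromodomain proteins that bind acetylated histones and associate with TFIID, the factor that recognises promoters for RNA polymerase II. In a degron experiment, the strain with an untagged copy shows which transcripts move with auxin itself, with OsTIR1 activity or with loss of the tagged pools while Bdf1 is still made. IAA is also a weak organic acid. Budding yeast meets lipophilic weak acids mainly through War1, a zinc cluster activator that binds the acid and switches on PDR12, the gene of a plasma membrane pump that exports carboxylate anions. Acid and other stresses can in addition release the activators Msn2 and Msn4, which bind the stress response element (STRE), and stress commonly lowers the genes of ribosome biogenesis.

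The method, SLAM-seq, reads incorporated 4tU as T-to-C conversions. A read with at least 2 conversions is called labelled and counts as new RNA, and all reads of a gene window count as total RNA. The 3 IAA libraries held 7103937, 8541751 and 6637936 S. cerevisiae reads, and the 3 DMSO libraries 5408505, 6873276 and 5345864. Labelled reads made up 6.31%, 6.72% and 7.65% of them with IAA, against 7.41%, 7.17% and 7.30% with DMSO and 0.334% to 0.403% in the RDY234 libraries without 4tU. Labelling was thus far over background in both groups, and the groups overlapped. Schizosaccharomyces pombe cells mixed in before extraction gave 7.37% to 8.49% of the reads of these 6 libraries. Values below are reads divided by the library's S. pombe reads of the same kind, brought back to read numbers by the average S. pombe sum, and called scaled reads (S. pombe scale). Where stated, the summed S. cerevisiae reads took the place of the S. pombe reads (S. cerevisiae scale), which shows changes relative to that sum. Abundant genes weigh most in the sum. Cytosolic ribosomal protein genes held 37.3% of total reads with IAA and 34.9% with DMSO (means), and 16.8% and 16.3% of labelled reads. In bulk samples fewer cells and less RNA per cell cannot be told apart. Reads may include copies of 1 molecule, so counting error is a lower bound.

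The strain label was checked at the engineered loci. Total TRP1, the marker of the untagged copy, had 340 ± 49.2 scaled reads in RDY234 with IAA and 332 ± 31.2 with DMSO, against 11.7 ± 2.46 and 14.1 ± 1.00 in RDY73 with IAA and with DMSO (SD, n = 3 each). Total BDF1 had 2337 ± 46.2 and 2458 ± 14.2 scaled reads in RDY234 with IAA and with DMSO, against 712 ± 76.4 and 751 ± 25.2 in RDY73. Both loci went with the genotypes given. The HIS3 window held 5.19 to 8.75 scaled reads in the 6 libraries and checks nothing. Degradation takes place at the protein level and only transcript ends were read, so the loss of tagged Bdf1 or Bdf2 was not measured.

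Promoter elements are shown first for PDR12, TIS11, PHO12 and HOR7, which passed the test in at least one measure and have a well-known activator whose element can be read from the reference, and for PHO11, the paralog of PHO12, which did not pass. Sequences are from the R64 reference, 5′ to 3′ on the strand of the gene, with 8 bases on each side of a match and the match in capitals. The War1 element was searched as CGG and CCG separated by 23 bases of any letter. The PDR12 window spans chrXVI:450985-451029 on the minus strand, and the match in it lies 644 to 616 bases upstream of the start codon.
PDR12, War1 element: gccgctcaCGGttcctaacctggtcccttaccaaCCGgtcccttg
TIS11 holds 2 matches to the Aft1 core GCACCC, at chrXII:416893-416914 and, on the opposite strand of the gene, at chrXII:416818-416839, both printed on the minus strand. Aft1 is the activator of the genes induced in low iron.
TIS11, upstream Aft1 core: cgcaaaatGCACCCacattaaa
TIS11, downstream Aft1 core: atgcagttGGGTGCattgtgcc
PHO12 and PHO11 each hold 1 match to the Pho4 core CACGTG, at chrVIII:551808-551829 and chrI:225169-225190 on the plus strand, in windows with the same letters. Pho4 is the activator of the phosphate starvation genes.
PHO12, Pho4 core: ggcgttcaCACGTGggtttaaa
PHO11, Pho4 core: ggcgttcaCACGTGggtttaaa
HOR7 holds 4 matches to the STRE core AGGGG, 2 of them on the opposite strand, in windows at chrXIII:774133-774153, chrXIII:774193-774213, chrXIII:774371-774391 and chrXIII:774493-774513, printed on the plus strand in the order in which they approach the gene.
HOR7, STRE on the gene strand, 611 bases upstream: cgcttgtaAGGGGgatggggg
HOR7, STRE on the opposite strand, 551 bases upstream: acccgggaCCCCTcctctccc
HOR7, STRE on the gene strand, 373 bases upstream: tctagaacAGGGGctacagtc
HOR7, STRE on the opposite strand, 251 bases upstream: tgggtaagCCCCTttctgttt
In the 800 bases upstream of all 6411 genes read, the War1 element was found in 3.79%, the Aft1 core in 12.6%, the Pho4 core in 8.77% and the STRE in 47.4%, on either strand and with overlaps counted. The PDR12 promoter held no STRE. A match is a stretch of letters and not a shown binding site.

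The response as a whole was small. New RNA of 2 of 5195 tested genes passed the threshold on the S. pombe scale, which is 0.0385% (edgeR quasi-likelihood test, Benjamini-Hochberg adjusted p under 0.05): PDR12 rose and TIS11 fell, 1 gene or 0.0192% in each direction. Total RNA of 2 of 6100 genes passed, or 0.0328%: PDR12 rose and PHO12, a secreted acid phosphatase, fell, 0.0164% in each direction. The median log2 change of all tested genes was −0.12 in new RNA and −0.13 in total RNA. Without adjustment, p was under 0.05 for 245 genes in new RNA, 35 of them higher with IAA (0.674%) and 210 lower (4.04%). In total RNA 482 genes had such a p, 43 higher (0.705%) and 439 lower (7.2%). All IAA libraries lay above all DMSO libraries for 1.79% of genes in new RNA and 0.869% in total RNA, and below them for 12.3% and 17.3%. On the S. cerevisiae scale the medians were −0.02 and −0.09, and the genes with an unadjusted p under 0.05 in new RNA split into 107 higher (2.06%) and 94 lower (1.81%). In total RNA on that scale 1.89% were higher and 7.7% lower. The groups did not overlap there for 4.54% of genes higher and 6.22% lower in new RNA, and for 2.25% higher and 12.9% lower in total RNA.

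The tests were narrow enough to bound most genes. The 95% confidence interval of the change of new RNA lay within 2-fold in either direction for 3541 of 5195 genes (68.2%), and for 2126 of the 2196 genes with a mean of at least 50 labelled reads (96.8%). In total RNA the interval lay within 2-fold for 5636 of 6100 genes (92.4%). The interval of 1 gene, PDR12, lay wholly beyond 2-fold in new RNA, and the same number did in total RNA. The median change of new RNA lay between −0.11 and −0.13 in each of 5 equal bins of the genes by level, so the shift was alike at low and high counts. The median SE was 0.49 on the log2 scale in the lowest bin, with means up to 21.0 labelled reads, and 0.18 in the highest bin.

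**Figure D1:**
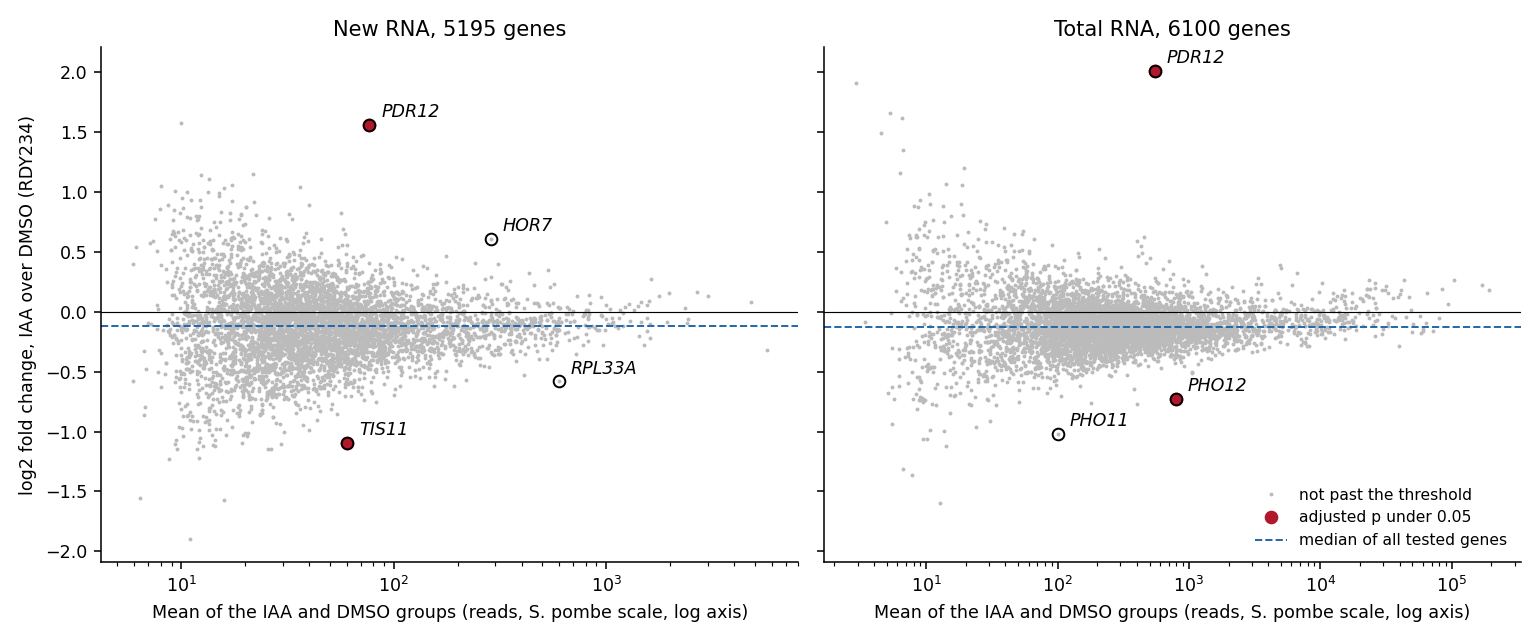
Log2 fold change of IAA over DMSO in RDY234 (y axis) against the mean level of each gene in scaled reads (log x axis), for new RNA (left, 5195 genes) and total RNA (right, 6100 genes), with genes past the threshold in red and the median of all genes dashed. PDR12 lies at 1.56 in new RNA, where HSP12 lies at 1.58 without passing the threshold. In total RNA PDR12 is the highest gene, at 2.01. The medians of all genes lie at −0.12 and −0.13.

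The amount of labelled RNA per cell equivalent differed little. Per labelled S. pombe read, the log2 number of labelled S. cerevisiae reads was 5.07 ± 0.07 with IAA and 5.18 ± 0.05 with DMSO, a difference of −0.11 (exact permutation test, two-sided, p = 0.2; SD, n = 3 each). The ratio of all reads differed by −0.04 on the log2 scale (exact permutation p = 0.8), and the labelled share was 6.90% ± 0.69 with IAA against 7.29% ± 0.12 with DMSO (exact permutation p = 0.4). The groups overlapped in all 3 measures, and 3 libraries against 3 allow no p below 0.1. One noncoding S. pombe window of multimapped reads, SPNCRNA.1095, held 17.1% of the S. pombe reads of IAA replicate B, against 10.3% to 13.8% in the other 5 libraries. Of the labelled S. pombe reads, which scale new RNA, it held 28.3% in IAA replicate B and 22.8% to 25.6% in the other 5. Without that window, an alternative chosen after seeing the data, the labelled ratio differed by −0.09 and every IAA library lay below every DMSO library (exact permutation p = 0.1) and the total ratio by −0.02. IAA replicate B was the highest of the 6 libraries for 1.67% of genes in total RNA, and without it the total ratio differed by 0.03, in the other direction.

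PDR12 (YPL058C, chromosome XVI 445842 to 450377, minus strand) had the largest fold change of the genes called in new RNA and in total RNA. New PDR12 had 121, 123 and 99.7 scaled labelled reads in the 3 IAA libraries, against 30.0, 35.0 and 52.2 in the 3 DMSO libraries and 0, 0 and 1.03 without 4tU. Every IAA library lay above every DMSO library. The log2 change was 1.56 ± 0.25 (SE), or 2.95-fold, with a 95% interval of 1.06 to 2.06 and an adjusted p of 3.72e-06 (edgeR). Total PDR12 had 907, 826 and 892 scaled reads with IAA, against 196, 259 and 195 with DMSO, again without overlap. Its change was 2.01 ± 0.16, or 4.03-fold, with an interval of 1.70 to 2.32 and an adjusted p of 4.38e-13. The RDY234 libraries without 4tU had 329, 260 and 238 total PDR12 reads, so the IAA libraries stood above both groups without auxin. PDR12 passed under all 17 alternatives tried for new RNA, with changes between 1.41 and 1.81.

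The total change of PDR12 was larger than the change in new RNA, and the labelled share of its reads was lower with IAA. Labelled reads made up 14.0%, 14.5% and 12.8% of PDR12 reads with IAA, against 16.3%, 15.1% and 27.3% with DMSO. The DMSO shares rest on few reads, and DMSO replicate C stood apart from the other two. The intervals of the new and total changes overlap.

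**Figure D2:**
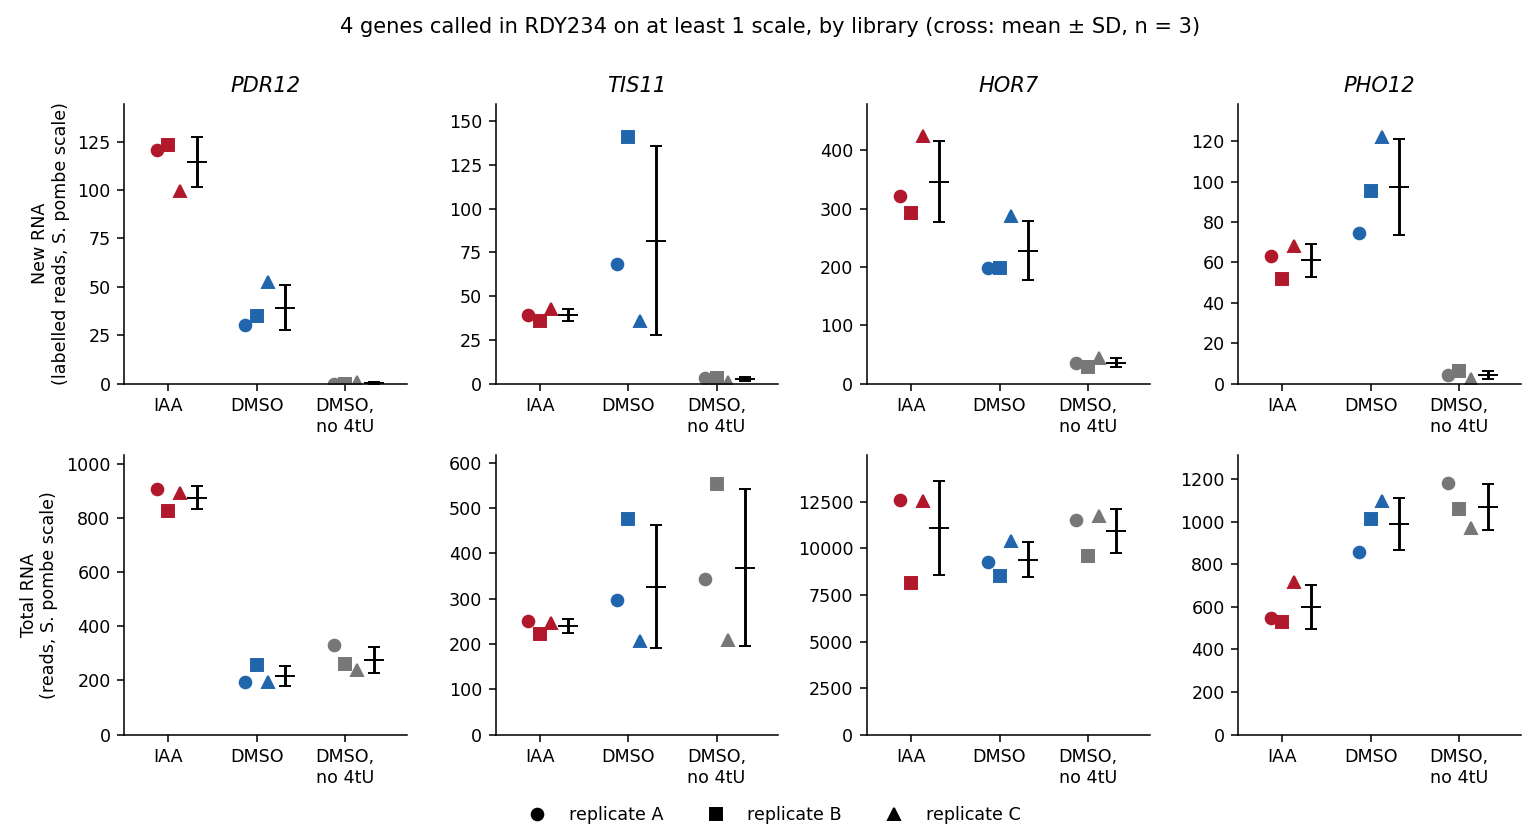
Scaled reads (y axis, from 0) of PDR12, TIS11, HOR7 and PHO12 in RDY234 in each library (points, shaped by replicate letter) with the mean ± SD of 3 libraries (cross), for new RNA (top) and total RNA (bottom). PDR12 separates completely in both measures, new TIS11 is highest in DMSO replicate B at 141 labelled reads, and PHO12 separates in total RNA.

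The other genes of weak-acid export did not pass. The list of War1 and weak-acid exporters held 6 genes, of which 4 could be tested in new RNA and 5 in total RNA, and PDR12 alone was called. WAR1, the activator, had 19.5, 25.5 and 43.8 scaled labelled reads with IAA and 27.6, 21.8 and 30.6 with DMSO, overlapping (log2 change 0.16 ± 0.37, adjusted p = 0.990, edgeR). Total WAR1 lay the other way, at −0.31 (−0.27 on the S. cerevisiae scale), and was not called. On the S. pombe scale it lay between −0.44 and −0.19 under 14 alternatives. TPO1, a polyamine and acid exporter, had a change in new RNA of −0.04 ± 0.19 and AQR1, a transporter linked to resistance to short-chain acids, one of −0.24 ± 0.41. Neither separated between the groups. ATO2, a putative ammonium or acetate transporter tested in total RNA only, had a change of −0.49 ± 0.29 (adjusted p = 0.633, edgeR). Thus the rise in PDR12 stood without a call in the rest of its list. Of 6 promoters on the list, 2 held the War1 element. Over all genes tested, the 187 with 1 such match had a median change of new RNA of −0.10, against −0.12 for the 4988 with none.

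Acid genes under other activators gave no call either, except in alternative fits. Haa1 is the activator of the response to acetic and other less lipophilic acids, and 0 of 12 genes of its list passed in new RNA and 0 of 17 in total RNA (edgeR), with medians of −0.04 and 0.03 (0.07 and 0.08 on the S. cerevisiae scale). At an unadjusted p under 0.05, 1 Haa1 gene was higher in new RNA and 3 in total RNA, beside 0.674% and 0.705% of all genes. In total RNA those included STF2, a stress hydrophilin, with 531, 404 and 616 scaled reads with IAA against 370, 413 and 319 with DMSO (log2 change 0.49 ± 0.14), and YRO2, a membrane protein, with 283, 199 and 248 against 136, 190 and 178 (0.52 ± 0.16). IAA replicate B lay within the DMSO range for STF2 and above it for YRO2. STF2 and YRO2 were both called higher in total RNA with another normalization, TMM factors over S. cerevisiae genes. On the S. cerevisiae scale both were also called in total RNA with DESeq2, and without IAA replicate B. Of the targets of the multidrug activators Pdr1 and Pdr3, 0 of 14 passed in new RNA and 0 of 15 in total RNA (edgeR), with 0 at an unadjusted p under 0.05 in new RNA and 1 lower in total RNA, beside 7.2% of all genes. The pumps PDR5, SNQ2 and YOR1 had changes in new RNA of −0.13 ± 0.14, −0.12 ± 0.16 and −0.21 ± 0.24, close to the median of all genes.

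TIS11 was the one gene called lower in new RNA on the S. pombe scale, and its call rested on single libraries. TIS11 (YLR136C, chromosome XII 415801 to 416658, minus strand), also known as CTH2, encodes a protein that binds and destabilises mRNAs of iron-using proteins when iron is low. New TIS11 had 38.9, 36.0 and 42.9 scaled labelled reads with IAA, against 68.4, 141 and 35.7 with DMSO. The groups overlapped, since DMSO replicate C lay below all 3 IAA libraries and DMSO replicate B was the highest of the 6. The log2 change was −1.10 ± 0.24, or 2.14-fold, with an adjusted p of 0.0139 (edgeR). Without DMSO replicate B it was −0.42 and no longer called, and the call was also lost without IAA replicate A or B, at −1.09 and −1.03, with DESeq2 at −1.07, and with a threshold of 1 conversion at −0.53. Total TIS11 had 251, 222 and 247 scaled reads with IAA against 297, 475 and 208 with DMSO (−0.46 ± 0.22, adjusted p = 0.627, edgeR).

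The rest of the iron regulon showed where that library stood. Of 38 listed Aft1 targets, 36 were tested in new RNA and 38 in total RNA, and TIS11 was the only one called. The median change was −0.26 in new RNA and −0.18 in total RNA, beside −0.12 and −0.13 over all genes. Changes were below 0 for 31 of 36 and 33 of 38, beside 69.1% and 78.0% of all genes. Without DMSO replicate B the list median was −0.17 in new RNA, beside −0.15 over all genes, and −0.07 in total RNA, beside −0.12, above the other genes. By role, the surface reductases and iron uptake genes had a median of −0.37 in new RNA, siderophore uptake −0.36, and the genes of the vacuole and mitochondria −0.20. At an unadjusted p under 0.05, 5 genes were lower and 1 higher in each measure, beside 4.04% lower and 0.674% higher of all genes in new RNA and 7.2% and 0.705% in total RNA. Without DMSO replicate B, 2 were lower in new RNA and 0 in total RNA, and without IAA replicate A, 1 was lower in total RNA. Without DMSO replicate C, 10 were lower in total RNA. Over all genes, 218 of 5124 had such a p in new RNA without DMSO replicate B, in either direction. In total RNA these were 325 of 6089 there, 366 of 6091 without IAA replicate A and 403 of 6096 without DMSO replicate C. DMSO replicate B was the highest of the 6 libraries for 19 of the 38 iron genes in total RNA (50.0%), against 22.5% of all genes, and for 13 of the 36 in new RNA (36.1%), against 15.2% of all genes.

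FRE1 and CTR1 made the pattern of the libraries plain. FRE1, a surface reductase for iron and copper, had 268, 407 and 212 total scaled reads with IAA, 435, 798 and 280 with DMSO and 665, 1073 and 325 without 4tU. CTR1, the high-affinity copper transporter, had 290, 368 and 238 with IAA, 458, 641 and 301 with DMSO and 836, 1089 and 368 without 4tU. Both genes ran in the order B, A, C in all 3 groups, and with each letter IAA lay below DMSO and DMSO below the libraries without 4tU. The log2 changes were −0.77 ± 0.25 for FRE1 and −0.64 ± 0.21 for CTR1 in total RNA (adjusted p = 0.581 for both, edgeR), and −0.26 and −0.34 without DMSO replicate B. In new RNA FRE1 had 19.5, 33.0 and 27.9 scaled labelled reads with IAA against 36.0, 84.2 and 38.2 with DMSO (−0.99 ± 0.29, adjusted p = 0.577, edgeR; −0.45 without DMSO replicate B). What sets this order of the letters was not tested. FTR1, the iron permease, had 164, 168 and 176 labelled reads with IAA against 216, 216 and 239 with DMSO, without overlap and with no such order (−0.40 ± 0.17, adjusted p = 0.977, edgeR). No Aft1 core was found upstream of FRE1, while 26 of the 38 listed promoters held one. Against the direction of the list, ECM4, a glutathione transferase, had 47.7, 24.8 and 73.6 labelled reads with IAA and 32.4, 18.9 and 19.1 with DMSO (1.04 ± 0.33, adjusted p = 0.638, edgeR), overlapping.

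**Figure D3:**
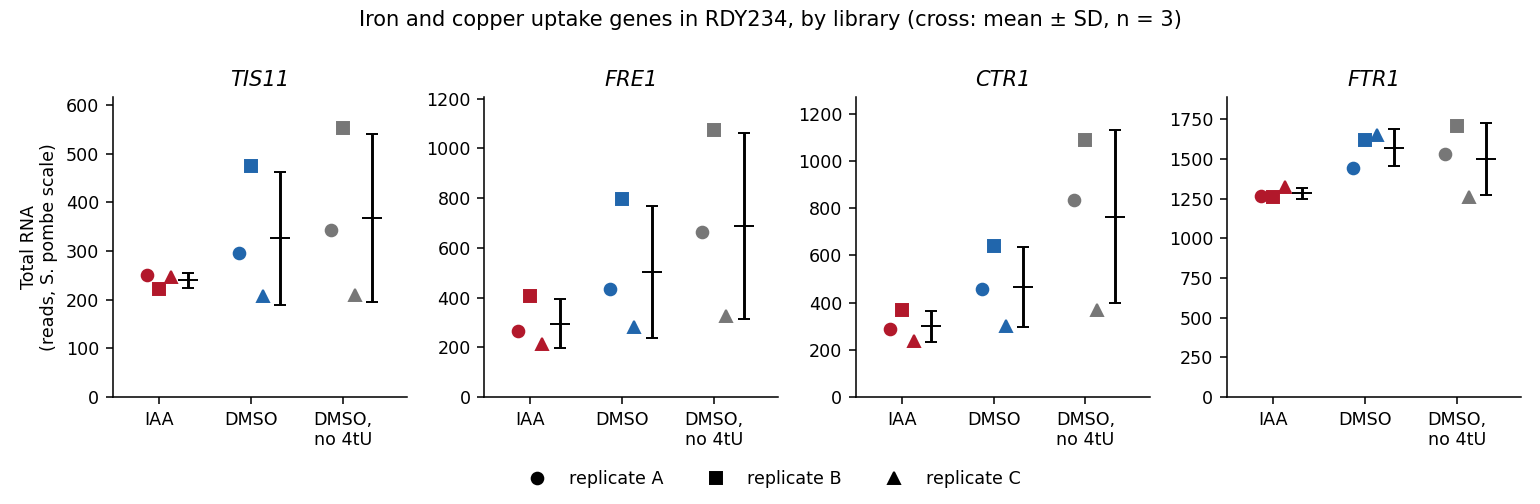
Total RNA in scaled reads (y axis, from 0) of TIS11, FRE1, CTR1 and FTR1 in the IAA, DMSO and no-4tU libraries of RDY234, with points shaped by replicate letter and the mean ± SD of 3 libraries. Replicate B is the highest of its group for FRE1 and CTR1 in all 3 groups, up to 1073 and 1089 reads without 4tU.

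Phosphate genes lay lower in total RNA, and PHO12 was the one that passed the threshold. PHO12 (YHR215W, chromosome VIII 552099 to 553502, plus strand) had 546, 530 and 717 total scaled reads with IAA, against 856, 1013 and 1099 with DMSO and 1180, 1059 and 968 without 4tU. Every IAA library lay below every library without auxin. The log2 change was −0.73 ± 0.14, or 1.66-fold, with an adjusted p of 0.0201 on the S. pombe scale and 0.00534 on the S. cerevisiae scale (edgeR). The call on the S. pombe scale was lost without DMSO replicate B or C and without IAA replicate A or B. New PHO12 had 63.3, 51.8 and 68.0 labelled reads with IAA against 74.4, 95.5 and 122 with DMSO, also without overlap (−0.68 ± 0.24, adjusted p = 0.842, edgeR).

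PHO11, the close paralog of PHO12 on chromosome I (YAR071W, 225460 to 226863, plus strand), had 73.5, 70.0 and 55.5 total reads with IAA against 143, 127 and 135 with DMSO. The groups did not overlap and the change was −1.02 ± 0.24, with an adjusted p of 0.194 (edgeR). Reads that fit both copies could be split between them by the authors' counting, and 0.14% and 0.54% of the reads of PHO12 and PHO11 were marked multimapped. Of 18 listed genes of the phosphate regulon, PHO12 alone passed in total RNA. The median was −0.26, and 8 of the 18 were lower and 0 higher at an unadjusted p under 0.05, beside 7.2% and 0.705% of all genes. The 8 became 4 without DMSO replicate C, 5 without IAA replicate B and 13 without IAA replicate C. Of all genes, 403 of 6096, 345 of 6082 and 747 of 6085 had such a p in those fits, in either direction. Genes chosen after their values were seen were PHM6, a small phosphate-regulated protein, at −0.76 ± 0.20, PHO5, the main secreted acid phosphatase, at −0.56 ± 0.22, and VTC1, of the polyphosphate polymerase, at −0.32 ± 0.12. PHO84, the high-affinity transporter, whose window overlaps that of YML122C, had 946, 977 and 1167 labelled reads with IAA against 1064, 998 and 1263 with DMSO and overlapped (−0.10 ± 0.13). In new RNA the list had a median of −0.23 with 2 of 16 lower at an unadjusted p under 0.05, beside 4.04% of all genes. Without DMSO replicate C it had a median of −0.15 with 0 lower. Over all genes 162 of 5144 had such a p in that fit, in either direction. The Pho4 core was found upstream of 16 of the 18 genes.

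On the S. cerevisiae scale 7 of 5195 genes passed in new RNA (0.135%). PDR12, HOR7, CWP2, YGR210C and NCE102 rose (0.0962%) and TIS11 and RPL33A fell (0.0385%), while total RNA gave the same calls, PDR12 and PHO12, as on the S. pombe scale (0.0328%, or 0.0164% in each direction). HOR7 (YMR251W-A, chromosome XIII 774752 to 774931, plus strand), a small protein induced in hyperosmotic stress, had 236, 217 and 286 labelled reads with IAA against 132, 136 and 184 with DMSO on the S. cerevisiae scale. The groups did not overlap, and the change was 0.71 ± 0.12 (adjusted p = 3.09e-05, edgeR). On the S. pombe scale it was 0.61 ± 0.16, with an adjusted p of 0.122. Total HOR7 had a change of 0.24 on the S. pombe scale (adjusted p = 0.629, edgeR).

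The other calls on that scale were small. CWP2, a cell wall mannoprotein, had a change of 0.38 ± 0.09, and NCE102, a membrane protein of eisosomes, one of 0.46 ± 0.11 (adjusted p = 0.0241 and 0.0420, edgeR). Both were lost under most alternatives, and CWP2 overlapped between groups, with IAA replicate B at 941 against 885, 891 and 1144 with DMSO. YGR210C, a predicted GTPase, had 481, 286 and 293 labelled reads with IAA against 283, 271 and 246 with DMSO on the S. pombe scale, so that IAA replicate A alone stood apart. Its change of 0.51 ± 0.12 on the S. cerevisiae scale (adjusted p = 0.0241, edgeR) was 0.21 without IAA replicate A. The YGR210C window lies 25 bases from that of TRX2, a thioredoxin, which was also highest in IAA replicate A, with 571, 422 and 444 labelled reads with IAA against 395, 388 and 366 with DMSO.

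RPL33A, a large-subunit ribosomal protein gene (YPL143W, chromosome XVI 282122 to 282970, plus strand), had a high background. Its labelled reads numbered 516, 454 and 475 with IAA and 780, 786 and 592 with DMSO on the S. pombe scale, but also 324, 316 and 43.3 without 4tU. In the libraries without 4tU, 1.66%, 1.55% and 0.188% of RPL33A reads had at least 2 conversions, so replicates A and B differed from replicate C with no label present. The change was −0.48 ± 0.11 on the S. cerevisiae scale (adjusted p = 0.0261, edgeR) and 0.06 there with a threshold of 1 conversion, and it was called in 5 of the 16 alternatives on that scale. Total RPL33A had a change of 0.10 ± 0.13.

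Genes of the Msn2/4 stress response lay above the rest, with 0 of 32 called in new RNA and 0 of 48 in total RNA on the S. pombe scale (edgeR). HOR7 was the 1 member called in new RNA on the S. cerevisiae scale, and with TMM factors over S. cerevisiae genes 1 was called in new RNA and 6 in total RNA. In new RNA 26 of 32 had a positive change, with a median of 0.26 beside −0.12 over all genes, whereas 1604 of all 5195 genes were positive. At an unadjusted p under 0.05, 4 were higher and 1 lower, beside 0.674% and 4.04% of all genes. In total RNA 38 of 48 had a positive change, against 1343 of all 6100 genes, with a median of 0.14 beside −0.13. There 10 were higher and 0 lower, beside 0.705% and 7.2%. On the S. cerevisiae scale 17 were higher, beside 1.89% of all genes, and with the TMM factors 22 were. In that last fit 429 of all 6100 genes had such a p, in either direction. HSP12, a membrane-protecting stress protein, had 10.7, 14.3 and 19.6 labelled reads with IAA against 4.80, 2.84 and 7.64 with DMSO and 5.14, 1.02 and 3.10 without 4tU. The DMSO values thus overlapped the background, and the change was 1.58 ± 0.50 (adjusted p = 0.638, edgeR), with 0.58 at a threshold of 1 conversion and 2.47 with the background subtracted. TSL1, a subunit of trehalose synthase, had 41.9, 45.0 and 69.9 labelled reads with IAA against 16.8, 35.9 and 30.6 with DMSO, without overlap (0.89 ± 0.31, adjusted p = 0.747, edgeR). By role the medians in new RNA were 0.43 for chaperones, 0.36 for membrane and wall genes, 0.26 for carbohydrate genes and 0.14 for antioxidant genes. The lists were chosen with earlier results of these data known, so their direction is a description.

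IAA replicate C stood highest among the libraries for these genes. The summed total reads of the 48 stress genes were highest in that library at 36371, against 24993 to 31776 in the other 2 IAA libraries and 25717 to 28085 with DMSO. The libraries without 4tU, which had no auxin, held 29036 to 34337. Without IAA replicate C the list median was 0.11 in new RNA and −0.01 in total RNA, where 22 of 48 changes were positive and the median of all genes was −0.19. At an unadjusted p under 0.05, 2 were then higher in new RNA, and 3 were higher and 3 lower in total RNA. Without IAA replicate B, 16 were higher in total RNA, 2 of them called. Without IAA replicate C, 248 of all 5105 genes had such a p in new RNA and 747 of 6085 in total RNA, either way. Without IAA replicate B, 345 of all 6082 genes had such a p in total RNA. DDR2, a stress gene chosen after its values were seen, had 522, 431 and 713 total reads with IAA against 388, 370 and 323 with DMSO, without overlap (0.62 ± 0.15, adjusted p = 0.288, edgeR). It was 0.40 without IAA replicate C, and 0.78 and called without IAA replicate B (adjusted p = 0.0191, edgeR). Its counterpart in new RNA overlapped (0.36 ± 0.44). STREs were found upstream of 46 of the 48 genes. Over all genes the median change of new RNA was −0.13 with no STRE (2721 genes), −0.12 with 1, −0.11 with 2 and −0.05 with 3 or more (220 genes).

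Ribosome biogenesis genes lay below the rest, with 0 of 95 called in either measure (edgeR). In new RNA 91 of 95 changes were negative, beside 69.1% of all genes, with a median of −0.28 beside −0.12 over all genes. At an unadjusted p under 0.05, 19 were lower and 0 higher, beside 4.04% and 0.674% of all genes, and 37 had IAA libraries all below the DMSO libraries, beside 12.3%. In total RNA 94 of 95 were negative, beside 78.0% of all genes, with a median of −0.27 beside −0.13. There 43 were lower at an unadjusted p under 0.05, beside 7.2% of all genes, and 71 did not overlap, beside 17.3%. The counts at an unadjusted p moved with single libraries. In new RNA 10 were lower without IAA replicate A, 11 without DMSO replicate A and 10 without DMSO replicate C. In total RNA 21 were lower without IAA replicate A, 23 without DMSO replicate A and 24 without DMSO replicate B. Over all genes, 157 to 179 had such a p in those fits in new RNA and 325 to 396 in total RNA, either way. With the 6 compared libraries alone the list counts rose to 31 in new RNA and 62 in total RNA. At 1 conversion the list count in new RNA was 30. Over all genes 458 of 5166, 616 of 6005 and 314 of 5601 had such a p in these fits, either way. Without IAA replicate C the list median was −0.24 beside −0.17 over all genes in new RNA and −0.27 beside −0.19 in total RNA, differences of −0.06 and −0.08. RPF1, an assembly factor of the large subunit, had 150, 209 and 170 labelled reads with IAA against 276, 244 and 269 with DMSO (−0.57 ± 0.18, adjusted p = 0.638, edgeR). UTP20, of the small-subunit processome, had 71.1, 90.8 and 68.0 against 120, 128 and 126 (−0.69 ± 0.22, adjusted p = 0.638, edgeR). In both genes every IAA library lay below every DMSO library, and IAA replicate B was the nearest to the DMSO values. The genes of rRNA modification and the processome and those of large-subunit assembly had alike medians, of −0.29 and −0.27.

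The libraries without 4tU, which differ from the DMSO libraries by the label, were set beside that difference. Summed total reads of the 95 genes were 112244 to 116376 with IAA and 127679 to 135247 with DMSO. Replicates A, B and C without 4tU had 125979, 122398 and 96117. Of these, A and B lay above every IAA library and C below every IAA library. Replicate C without 4tU also had fewer S. cerevisiae reads per S. pombe read, 10.9 against 13.5 and 12.9 in A and B. On the S. cerevisiae scale the medians were −0.17 in new RNA and −0.22 in total RNA, beside −0.02 and −0.09 over all genes. There 17 genes in new RNA and 38 in total RNA lay lower without overlap, beside 6.22% and 12.9% of all genes. As a summed share of S. cerevisiae reads, IAA replicate B lay within the DMSO range in both measures. It held 3.70% of new reads against 3.63% to 3.76% with DMSO, and 1.86% of total reads against 1.84% to 1.95%. The PAC core GATGAG, an element common in this regulon, was found upstream of 89 of the 95 genes and in 39.1% of all promoters. By its number of matches, the median change of new RNA over all genes was −0.11 with none, −0.14 with 1, −0.15 with 2 and −0.18 with 3 or more (3132, 1475, 433 and 140 genes).

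**Figure D4:**
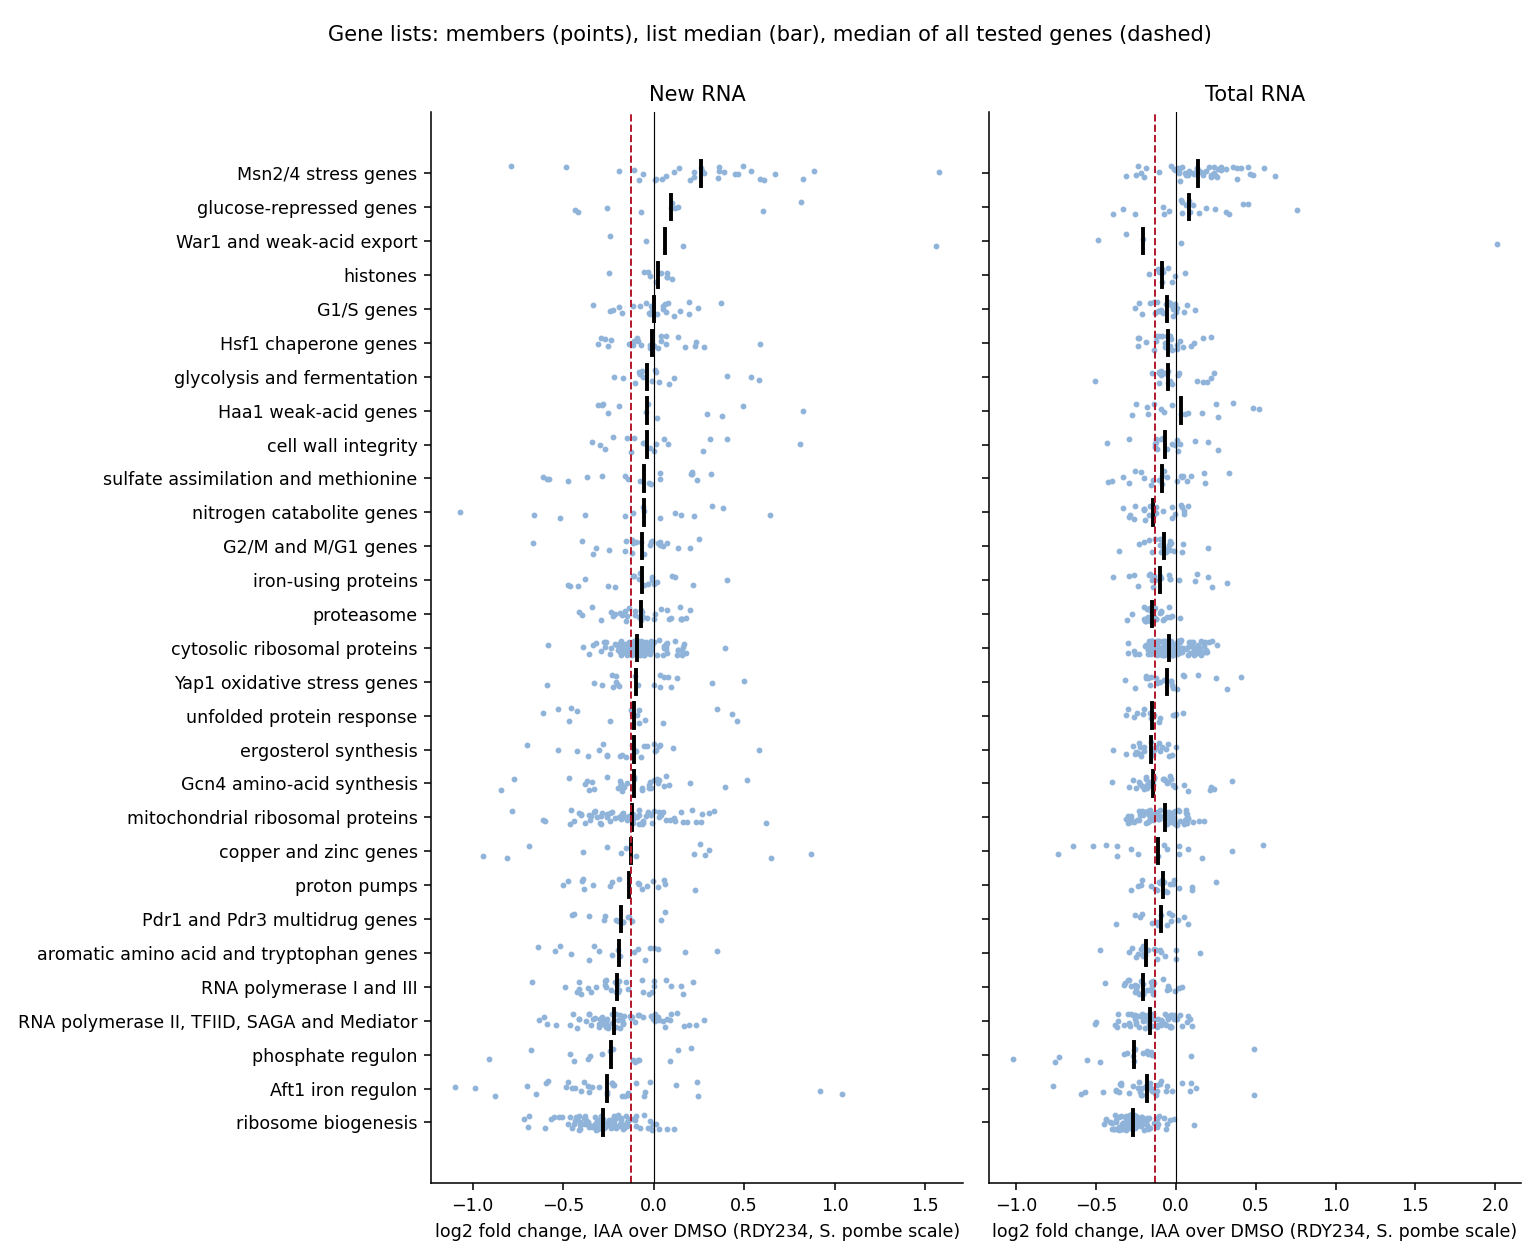
Log2 fold change of IAA over DMSO in RDY234 (x axis, S. pombe scale) for the members of each gene list (points) with the list median (bar) and the median of all tested genes (dashed), in new RNA (left) and total RNA (right). Msn2/4 stress genes sit highest with a median of 0.26 in new RNA and ribosome biogenesis genes lowest at −0.28, both within a shift of less than 0.5 on the log2 scale.

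Several other lists had medians between −0.22 and 0.10 in new RNA, beside −0.12 over all genes. Their medians in new RNA were −0.09 for 139 genes of cytosolic ribosomal proteins, −0.12 for 71 of mitochondrial ribosomal proteins, −0.03 for 18 of glycolysis and fermentation, −0.01 for 26 Hsf1 chaperone genes, 0.03 for 10 histone genes and −0.07 for 33 proteasome genes. Subunits of RNA polymerases I and III had a median of −0.20 and those of Mediator, SAGA, TFIID and RNA polymerase II one of −0.22. Of those 2 groups, 0 of 33 and 0 of 64 genes passed (edgeR), with 3 and 1 lower at an unadjusted p under 0.05, beside 4.04% of all genes. The list of aromatic amino acid and tryptophan genes, compounds to which IAA is chemically related, had a median of −0.19 with 0 of 18 called (edgeR) and 1 lower at an unadjusted p under 0.05, beside 4.04% of all genes. The other roles of the list did not share that direction in new RNA. Its breakdown and control genes had a median of 0.00 there, with 3 of 5 positive, and its permeases 0.00, with 1 of 2 positive. In total RNA their medians were −0.13 and −0.11. The 11 synthesis genes of the list lay lower, with a median of −0.33 in new RNA (−0.23 on the S. cerevisiae scale) and −0.20 in total RNA. On the S. pombe scale 11 of 11 synthesis genes had negative changes in both measures, beside 69.1% and 78.0% of all genes. On the S. cerevisiae scale 9 of 11 were negative in new RNA and 11 of 11 in total RNA, beside 53.0% and 70.7%. Glucose-repressed genes had a median of 0.10 in new RNA, with HXT7, a high-affinity hexose transporter, at 25.3, 35.3 and 62.4 labelled reads with IAA against 25.2, 22.7 and 21.6 with DMSO (0.82 ± 0.30, adjusted p = 0.842, edgeR). HXT2, another hexose transporter, lay the other way, at 157, 167 and 192 labelled reads with IAA against 223, 248 and 225 with DMSO (−0.43 ± 0.17, adjusted p = 0.914, edgeR).

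Further genes with small unadjusted p-values and no overlap between groups did not pass. Those lower with IAA included RBP95 and the tRNA methyltransferase TRM1, at −0.53 ± 0.15 and −0.62 ± 0.18, uridine kinase URK1 at −0.62 ± 0.19, the calcineurin subunit CNA1 at −0.76 ± 0.24 and the phosphatase PPT1 at −0.85 ± 0.28. Those higher with IAA included the actin-capping gene CAP1, with 73.0, 58.5 and 85.7 labelled reads with IAA against 42.0, 46.4 and 33.1 with DMSO (0.82 ± 0.27), SAM37 of the mitochondrial outer membrane at 1.14 ± 0.43, and the sterol ester hydrolase YEH2 at 0.77 ± 0.35. Adjusted p-values of these genes lay between 0.517 and 0.977 (edgeR).

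The genes of the degron targets themselves showed no call. New BDF1 had 395, 473 and 480 labelled reads with IAA against 480, 464 and 453 with DMSO, overlapping (−0.05 ± 0.15, adjusted p = 0.993, edgeR). The share of reads in this window from the tagged and the untagged copy was not resolved, so the untagged transcript was not measured alone. New BDF2 had 269, 248 and 251 with IAA against 328, 335 and 315 with DMSO, without overlap (−0.35 ± 0.16, adjusted p = 0.977, edgeR), whereas total BDF2 overlapped (−0.02 ± 0.13). Total TRP1 and URA3, whose levels stand for the marker genes, had changes of 0.03 ± 0.15 and −0.08 ± 0.13, where the URA3 window overlaps that of TIM9.

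These values were set beside those of RDY73, the strain with no untagged Bdf1. In RDY73 the same test called 4379 of 5195 genes in new RNA, 4359 of them lower, with a median of −1.97. The difference between the strains passed for 3866 genes (74.4%) in new RNA and 4264 (69.9%) in total RNA, so a call for any one gene is common. It passed for 32.7% and 66.7% on the S. cerevisiae scale. For PDR12 the difference of the log2 changes, RDY234 minus RDY73, was 2.22 ± 0.41 in new RNA (adjusted p = 7.54e-07, edgeR). PDR12 changed by 1.56 ± 0.25 in RDY234 and by −0.66 ± 0.33 in RDY73 (adjusted p = 0.0497 in RDY73). With TMM factors over S. cerevisiae genes the PDR12 difference in new RNA was 0.68 and did not pass (adjusted p = 0.231, edgeR). On the S. cerevisiae scale the difference was 1.28 (adjusted p = 0.00791), and PDR12 in RDY73 changed sign, to 0.39 with an adjusted p of 0.291, where the median of all genes was −0.93.

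In total RNA PDR12 rose in both strains. The change was 2.01 ± 0.16 in RDY234 and 0.66 ± 0.16 in RDY73 (adjusted p = 0.000292 in RDY73, edgeR), and the difference of 1.35 ± 0.22 passed (adjusted p = 1.15e-06). For TIS11 the difference in new RNA was 0.44 (adjusted p = 0.229, edgeR), and −0.53 on the S. cerevisiae scale. For PHO12 in total RNA it was 0.90 (adjusted p = 0.000295, edgeR), with −0.73 ± 0.14 in RDY234 and −1.63 ± 0.16 in RDY73. Over all genes the median change of total RNA was −0.13 in RDY234 and −1.24 in RDY73, further apart than for PHO12. HSP12 and DDR2 had differences that did not pass, of 0.20 in new RNA and −0.02 in total RNA (adjusted p = 0.754 and 0.937, edgeR; −0.77 and −0.28 on the S. cerevisiae scale, where they did not pass either), and total DDR2 was higher with IAA in RDY73 too (0.64 ± 0.14, adjusted p = 7.75e-05).

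**Figure D5:**
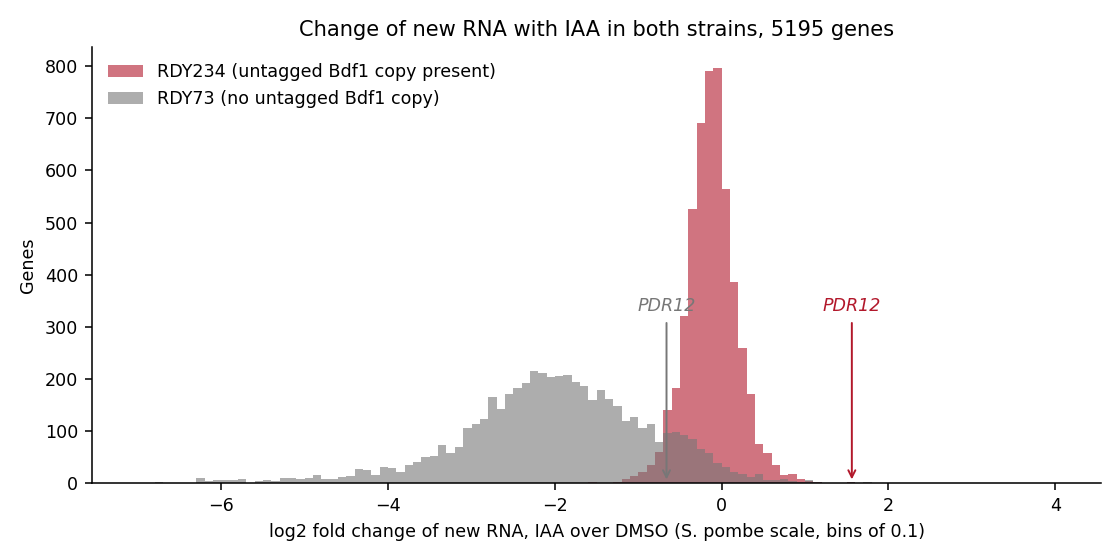
Number of genes (y axis) by log2 fold change of new RNA with IAA over DMSO (x axis, S. pombe scale, bins of 0.1) in RDY234 and RDY73, for 5195 genes, with PDR12 marked in each strain. The RDY234 genes centre on −0.12 and the RDY73 genes on −1.97, and PDR12 lies at 1.56 in RDY234 and −0.66 in RDY73.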

How the data were processed

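RNA was measured by 3′ mRNA sequencing with 4tU labelling in 18 libraries of 2 strains. The deposited files hold the authors' read counts per gene window for S. cerevisiae and S. pombe, with all reads and reads of at least 1 or 2 T-to-C conversions. Per the file headers the counts came from SLAM-DUNK 0.4.3, and per the submitters' processing notes reads were trimmed with fastp 0.23.2 and filtered with bbduk on builds R64 and ASM294v2. The sources used here do not give mapping settings, molecular identifiers or variant masking. Of 6465 S. cerevisiae windows, 6462 matched an R64 locus tag, and 1316 overlapped another window on the same strand.

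Genes with at least 10 reads in at least 3 libraries were tested with edgeR 4.0.16 (quasi-likelihood F test, R 4.3.3) on the counts, with library sizes set to the S. pombe sum of the same kind of read, over the 12 4tU libraries for new RNA and all 18 for total RNA. The threshold was a Benjamini-Hochberg adjusted p of 0.05 over all genes. Summed ratios were compared by exact permutation tests. The edgeR p-values weigh each change against the spread between biological triplicates, estimated over the 12 or 18 libraries of both strains. With the 6 compared libraries alone, 458 genes had an unadjusted p under 0.05 in new RNA on the S. pombe scale, against 245. The scripts were tested on simulated data. The comparison, gene lists and motifs were chosen with earlier results of these data known. Of 767 list symbols, 1 matched no window.

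Named genes were those past the threshold on either scale, those of smallest unadjusted p in new RNA among non-overlapping genes with a mean of at least 20 labelled reads, the engineered loci, the 3 of smallest p and the most abundant of each list, and all War1, Haa1, Pdr1/3 and Aft1 genes. DDR2, PHM6, PHO5 and VTC1 were chosen after their values were seen. Alternatives were another normalization, other filters and conversion thresholds, DESeq2 1.42.0, a fit with the replicate letter, and leaving out each library.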

Additional observations from a re-analysis of the deposited data

Results flagged for a closer look

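The effect of IAA differed between the strains, by a test of the difference itself, for 4 of the genes called in RDY234. Values are the log2 change in RDY234 minus that in RDY73 (edgeR). PDR12 had a difference of 2.22 in new RNA and 1.35 in total RNA on the S. pombe scale, and of 1.28 and 1.11 on the S. cerevisiae scale. PHO12 had a difference in total RNA of 0.90 on the S. pombe scale and 0.65 on the S. cerevisiae scale. On the S. cerevisiae scale in new RNA, HOR7 had a difference of −0.58 and NCE102 one of −0.47. Such a difference passed for 74.4% of all genes in new RNA and 69.9% in total RNA on the S. pombe scale, and for 32.7% and 66.7% on the S. cerevisiae scale. On the S. pombe scale the median change of all genes was −0.12 in RDY234 and −1.97 in RDY73 in new RNA. In total RNA it was −0.13 and −1.24. On the S. cerevisiae scale the medians were −0.02 and −0.93 in new RNA and −0.09 and −0.96 in total RNA. The total RNA medians of the strains thus lay further apart than the changes of PHO12.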

How the results depend on the processing

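Counts of called genes were low and moved with the settings. In new RNA on the S. pombe scale (2 genes) they were 4 with the 6 compared libraries alone, 4 with TMM factors over S. cerevisiae genes, 4 without SPNCRNA.1095, 1 with DESeq2, 1 at 1 conversion, 1 with a replicate block, and 1 to 4 leaving out 1 library. In new RNA on the S. cerevisiae scale (7 genes) they were 4 with 6 libraries, 4 with TMM over S. cerevisiae and 2 over S. pombe genes, 3 with at least 20 reads, 2 with a replicate block, 2 with DESeq2, 3 at 1 conversion, 2 scaled to all S. pombe reads, and 2 to 9 leaving out 1 library. In total RNA (2 genes on each scale) they were 15 on both with TMM over S. cerevisiae genes, of which 14 were higher with IAA, 4 with 6 libraries and 13 with DESeq2 on the S. cerevisiae scale, 1 to 5 leaving out 1 library on the S. pombe scale and 1 to 16 on the S. cerevisiae scale. That TMM scaling moved the median of all genes to −0.02 in new RNA and 0.00 in total RNA. Of the 2 genes called in new RNA, the strain difference passed for 1, for 2 at 1 conversion, and for 1 to 2 leaving out 1 library.

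PDR12 kept its call under all alternatives of both measures and scales. Over all genes with enough reads, deviations of same-lettered libraries correlated at 0.02, −0.01 and 0.02 in new RNA and −0.10, −0.02 and −0.06 in total RNA, so the letters were not used as pairs, although FRE1 and CTR1 ran in one order of letters in every group. With the replicate block TIS11 was not called, at −1.03. Leaving out 1 library gave differences of −0.15 to −0.08 for the labelled ratio, −0.083 to 0.027 for the total ratio and −0.77 to −0.10 percentage points for the labelled share. Small changes that turned sign were those of BDF1 (0.055 in new and 0.058 in total RNA with TMM over S. cerevisiae genes), BDF2 in total RNA (0.10 with that TMM, 0.019 over S. pombe genes), URA3 in total RNA (0.045 with that TMM), TPO1 in new RNA (0.067 with that TMM, 0.060 at 1 conversion), WAR1 in new RNA (−0.17 at 1 conversion) and RPL33A on the S. cerevisiae scale (0.056 at 1 conversion). The strain difference of TIS11 was −1.13 with that TMM. Leaving out 1 library gave −0.10 to 0.032 for BDF1, −0.16 to 0.11 for TPO1, −0.22 to 0.38 for WAR1 and −0.049 to 0.29 for TRP1 in new RNA, and −0.070 to 0.024 for BDF2 and −0.062 to 0.14 for TRP1 in total RNA. The cause was not tested. Depth limits genes of few labelled reads.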
